A study of Mus musculus with 4 samples.

Results

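The 10 genes described here are established transcriptional targets of the tumour suppressor p53 (Cdkn1a, Phlda3, Ccng1, Mdm2, Bbc3, Bax, Trp53inp1, Zmat3, Eda2r and Sesn2), among 32285 genes counted in each library. They were chosen by name for their known regulation by p53, and 9 of the 10 had at least 1 UMI in the thymocytes kept for analysis. Expression was measured by single-cell RNA sequencing of thymocytes with the 10x Genomics 3′ kit, version 3, in which a unique molecular identifier (UMI) marks each captured transcript, so PCR copies are counted once. The control group was 2 libraries from Tox4;F/F mice, which carry 2 floxed Tox4 alleles and no Cre. The conditional knockout group (cKO) was 2 libraries from Tox4 F/F;Lck+ mice, in which a Cre transgene under the Lck promoter is added to these alleles. The floxed part is exons 4 to 6 of Tox4, and the mice were gender-matched littermates of 6 to 8 weeks on a C57BL/6 background. Cre is driven by the proximal Lck promoter, and the study gives the DN3 stage as the start of deletion. Because no control carries Cre, loss of Tox4 and presence of Cre cannot be told apart. The study describes pairs of control and cKO mice, the labels do not say which library numbers form a pair, and p-values measure the spread between the libraries.

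p53 is a transcription factor held at a low level by the ubiquitin ligase Mdm2, and DNA breaks or other stress release it. It then induces genes that stop the cell cycle, such as Cdkn1a, genes that permeabilise mitochondria, such as Bbc3 and Bax, and genes that switch it off again, such as Mdm2. Thymocytes are among the cells most prone to p53-dependent death, and they also make programmed DNA breaks when they rearrange T cell receptor genes, first in double-negative (DN) cells and again in double-positive (DP) cells.

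p53 binds a response element of 2 half-sites of 10 bases. RefSeq promoter windows of GRCm38.p6, from 250 bases before to 50 bases after a gene's start, were found for 8 of the 10 genes (11 windows), and Trp53inp1 and Zmat3 were not matched. The element was searched on the gene's strand, which covers both strands because the consensus reads the same on its complement, as 2 half-sites without a spacer, with at most 1 mismatch and with the central C and G of each half-site in place. These settings were chosen after the windows had been viewed. It was present in 22 of 32841 windows of all genes (0.067%), and 2 of these 22 belonged to the genes described here, Cdkn1a and Ccng1. A perfect single half-site was held by 8.36% of all windows and by 4 of the 11 windows here (36.4%), of Cdkn1a, Ccng1, Mdm2 and Bax. The lines below show the 2 elements and the half-sites of Mdm2 and Bax, 5′ to 3′ on the strand of the gene with 5 flanking bases, and capitals mark bases that match the consensus.
Cdkn1a: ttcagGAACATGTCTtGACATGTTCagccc
Ccng1: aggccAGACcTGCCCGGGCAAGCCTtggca
Mdm2: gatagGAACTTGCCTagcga
Bax: atcccAGGCAAGCTTtgaac
Without the flanks, these lie at chr17:29090928-29090947 (plus strand, first base 51 bases before the start), chr11:40755462-40755481 (minus, 195 before), chr10:117710935-117710944 (minus, 186 before) and chr7:45467090-45467099 (minus, 201 before). These distances are counted from the RefSeq start of each window, which can differ from the GENCODE start given with the gene positions. The match describes the letters in these windows and no binding was measured here.

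The 4 libraries held 11790 to 17347 cells and 42716798 to 62007453 UMIs, and 33411 cells were kept. Between 20.6% and 48.3% of droplets had over 10% mitochondrial UMIs and were left out, with the 2 replicates numbered 1 at 48.3% and 46.1%. Libraries shared 36 to 70 cell barcodes per pair. Cells were named from marker lists as DN-like, DP blast-like (DPbla, cycling), rearranging DP-like (DPre), DP under selection-like (DPsel), CD4 single-positive-like (CD4SP), CD8 single-positive-like (CD8SP) and mononuclear phagocyte-like (MPS) cells. All markers of each αβ stage's own list were detected in that stage, and DN-like cells also held DPre markers at 3230 to 3928 CPM in sum and γδ T cell markers at 1308 to 1634 CPM. CD4SP cells held CD8SP markers at 1477 to 1757 CPM, against 2183 to 2329 CPM in CD8SP cells. In turn, CD8SP cells held CD4SP markers at 1643 to 2031 CPM, against 2185 to 2606 CPM in CD4SP cells, and the lists share Ccr7, S1pr1 and Klf2. The sum of the 6 stages and of 1764 cells between DPsel and CD4SP is called all αβ-lineage cells. The classes are rebuilt here and can differ from those of the study for that reason. Levels are counts per 1000000 UMIs of the class (CPM), which do not depend on transcript length because each transcript gives 1 UMI.

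Tox4 itself was checked first. In all αβ-lineage cells its level was 68.9 and 73.9 CPM in the control libraries, compared with 55.1 and 62.0 CPM in cKO cells, a log2 fold change of -0.25 (SE 0.10, adjusted p = 0.202 by edgeR's quasi-likelihood test with Benjamini-Hochberg adjustment, and 0.0484 with the replicate number as a block). A 3′ library reads the last of the 10 exons of Tox4, outside the deleted part, so this level does not check the deletion.

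Across stages, the 9 detected genes had different levels and different orders. These levels are given as a description with no test, because the stages were defined by clustering the same cells. Among the regulators of p53 and of the cell cycle, Cdkn1a (chr17:29090976-29100727, 3 exons), the p21 inhibitor of cyclin-dependent kinases, was highest in DN cells among the 6 stages. It reached 46.4 and 65.6 CPM in the 2 controls there and 35.2 and 64.8 CPM in cKO thymocytes, while the mean of every later stage was between 1.91 and 6.31 CPM. DN cells were apart from DPbla cells in all 4 libraries, and all other neighbours in the order overlapped. Mdm2 (chr10:117688875-117710758, 12 exons) was highest in DPre cells, at 94.4 to 111 CPM, apart from DPbla cells at 70.5 to 86.2 CPM. Its lowest mean was that of CD8SP cells, 48.1 ± 7.86 CPM (SD, n = 4). Ccng1 (chr11:40748552-40755311, 6 exons), which encodes cyclin G1, a partner of a phosphatase that acts on Mdm2, ranged from 25.4 ± 2.85 CPM in DPbla cells to 52.9 ± 8.32 CPM in CD4SP cells. Every pair of neighbours in its order overlapped, while these end stages were apart, at 22.6 to 29.3 CPM and 44.2 to 64.2 CPM.

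The genes of the cell death branch differed in their order of stages. Bbc3 (chr7:16308393-16318205, 4 exons), the BH3-only protein Puma that neutralises BCL2-type survival proteins, was highest in DPre cells at 34.2 to 49.3 CPM. DPsel cells followed at 21.5 to 31.2 CPM, apart from DPre cells in every library, and CD8SP, CD4SP, DN and DPbla cells had means from 16 down to 12 CPM that overlapped. Bax (chr7:45461697-45466898, 6 exons), which forms the pore in the mitochondrial outer membrane, was highest in DPsel cells at 168 ± 23.4 CPM and lowest in DPbla cells at 103 ± 18.0 CPM. Trp53inp1 (chr4:11156431-11174379, 4 exons), a stress-induced partner of p53 in cell death and autophagy, was the most abundant of the 10 genes in the αβ lineage as a whole. It was at 485 to 584 CPM in DPre cells, 301 to 359 CPM in DPsel cells and 63.1 to 83.5 CPM in CD8SP cells, and only DN and DPbla cells, at 189 and 180 CPM, overlapped as neighbours.

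The remaining genes act on growth signalling and RNA. Zmat3 (chr3:32334792-32366014, 6 exons), a zinc-finger protein that binds RNA, was at 17.9 to 21.3 CPM in DPsel and 14.6 to 18.1 CPM in DPre cells and at 3.45 to 7.01 CPM in DN and DPbla cells. Phlda3 (chr1:135766119-135769136, 2 exons), a pleckstrin-homology protein that competes with the kinase Akt for membrane lipids, had stage means between 5.98 and 9.83 CPM with no neighbours apart. These means join both groups. In the controls alone they ran from 2.22 CPM in CD4SP cells to 6.80 CPM in DPsel cells, and in the cKO group from 9.73 CPM in CD4SP cells to 13.1 CPM in CD8SP cells. Sesn2 (chr4:132492032-132510501, 10 exons), a sestrin that restrains the growth kinase complex mTORC1, had stage means between 1.75 and 3.28 CPM. In MPS cells, outside the T lineage, Cdkn1a was at 14.8 to 21.2 CPM and Sesn2 at 6.47 to 17.7 CPM. An unnamed cluster of 700 cells, led by S100a9, S100a8 and Ccl5, held Cdkn1a at 154 and 93.6 CPM in the controls. Its cKO cells held 77.2 and 80.8 CPM. Eda2r (chrX:97333840-97377216, 8 exons), a receptor of the tumour necrosis factor family, had no UMI in any class. A count of 0 in the 121393193 UMIs of the αβ lineage allows a level of up to 0.0247 CPM, counting error only.

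**Figure D1:**
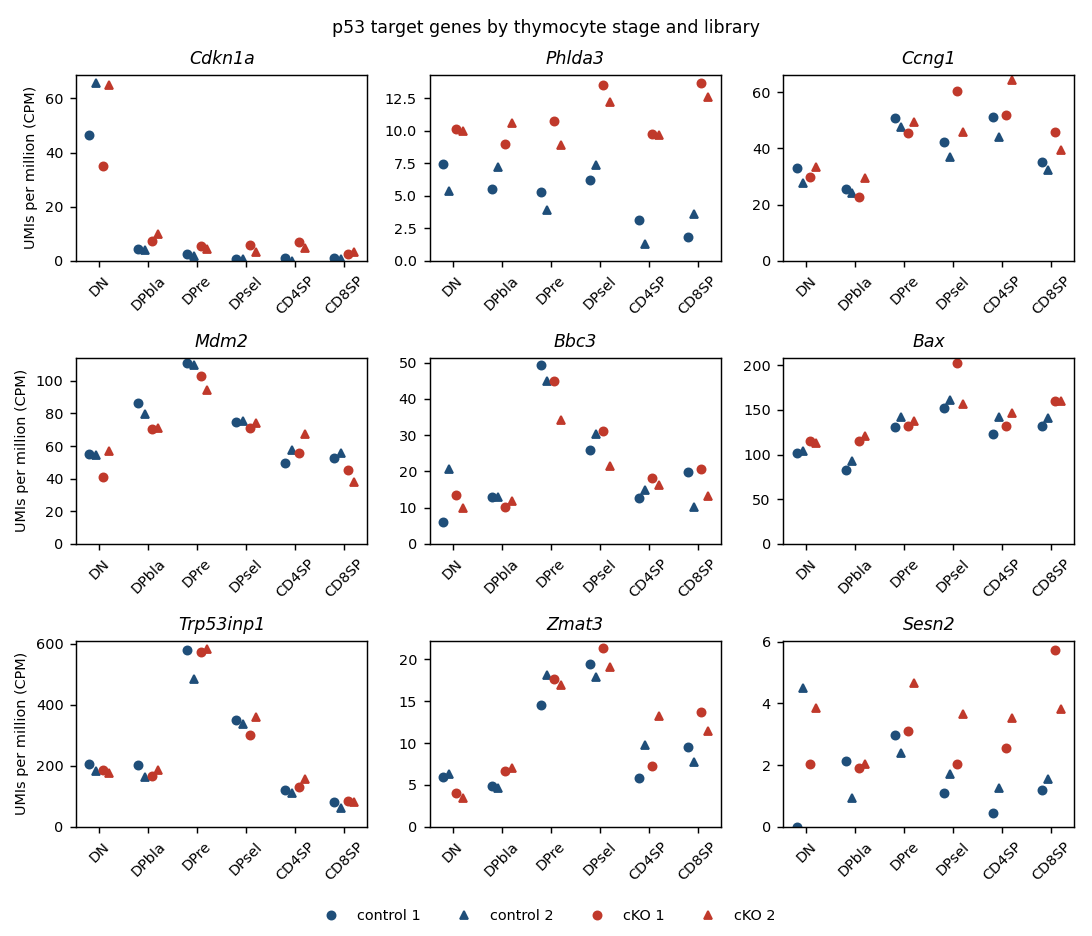
Level of the 9 detected genes in each stage (x axis) as UMIs per 1000000 (CPM, y axis from 0), with 1 point for each of the 4 libraries, blue for control and red for cKO, circles for replicate 1 and triangles for replicate 2. Cdkn1a stands at 35.2 to 65.6 CPM in DN cells and under 10 CPM later, Trp53inp1, Mdm2 and Bbc3 peak in DPre cells, and the red Phlda3 points lie above the blue ones in every stage.

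Genes were named as most alike in pattern by Pearson's r of log2(CPM + 1) over the 24 sums of 6 stages and 4 libraries, among 8082 genes with a mean of at least 10 CPM. The 24 sums share 4 libraries and their stages were cut by expression, so these r values are descriptions. Cdkn1a was most like Notch1 (r = 0.93), Tshz2 (r = 0.91) and Hes1 (r = 0.90). Notch1 encodes the receptor that drives the DN stage, and Hes1, a target of Notch signalling, is itself 1 of the 8 DN markers. Trp53inp1 was most like Ramp1 and Dcaf17 (both r = 0.97) and Hdac7 (r = 0.97). Mdm2 was most like Plxnd1, Pias1 and Cdkn1b (each r = 0.94), Bbc3 most like Fbxo28, Ccndbp1 and Klhl20 (r = 0.90, 0.90 and 0.88), Ccng1 most like Ube2h (r = 0.91), Bax most like Pak2 (r = 0.90) and Zmat3 most like Syne1 (r = 0.88). Among the 10 genes themselves, Mdm2 and Trp53inp1 were the most alike (r = 0.81), followed by Bax and Zmat3 (r = 0.80), whereas Cdkn1a and Zmat3 ran opposite (r = -0.52).

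In all αβ-lineage cells, 2 of the 10 genes, Cdkn1a and Phlda3, rose in cKO thymocytes and none was called lower, against 3.10% of 13322 genes called in either direction. Cdkn1a was at 3.46 and 4.02 CPM in the control libraries, compared with 7.34 and 9.85 CPM in cKO cells. Both cKO libraries lay above both controls, with a log2 fold change of 1.23 (SE 0.19, adjusted p = 0.0152 by edgeR's quasi-likelihood test). Phlda3 was at 4.68 and 4.79 CPM against 10.4 and 10.1 CPM, a log2 fold change of 1.14 (SE 0.15, adjusted p = 0.00874 by the same test). The 2 libraries of a group were closer to each other than the groups were apart. Marker sums moved in the same cells. DPbla markers were at 1528 and 1505 CPM in the controls and 2130 and 2023 CPM in cKO cells, DN markers at 89.2 and 99.3 CPM against 130 and 159 CPM, γδ T markers at 144 and 132 CPM against 180 and 190 CPM, and erythroid markers at 16.9 and 13.3 CPM against 45.6 and 29.1 CPM. DPre markers were at 4011 and 3789 CPM against 3492 and 3675 CPM and DPsel markers at 1010 and 941 CPM against 763 and 727 CPM, the B cell list was higher in both cKO libraries, and the part of these markers in the αβ-lineage values was not tested. The call of Phlda3 was lost without cKO 1 (adjusted p = 0.0584) and that of Cdkn1a without cKO 2 (adjusted p = 0.0721).

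Cdkn1a is strongly expressed in DN cells, and DN cells were 1.29% and 1.35% of kept cells in the controls, compared with 2.15% and 2.64% in the cKO group. DN cells held 38.8% and 58.4% of the αβ-lineage Cdkn1a UMIs in control 1 and 2, compared with 25% and 44.1% in cKO 1 and 2. With DN cells left out, an alternative added after seeing the data, Cdkn1a was at 2.18 and 1.73 CPM in the controls, compared with 5.81 and 5.90 CPM in cKO cells, and the log2 fold change was 1.62 (adjusted p = 0.00660 by edgeR).

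The other 7 tested genes did not pass the test in the αβ lineage, although Bbc3 and Sesn2 did with the replicate number as a block (adjusted p = 0.0222 and 0.00568 by edgeR), a fit that called 14.7% of all tested genes. Sesn2 was at 2.16 and 1.83 CPM against 2.86 and 3.73 CPM (0.77 on the log2 scale, SE 0.24, adjusted p = 0.112 by edgeR). Bax was at 124 and 134 CPM against 136 and 135 CPM (0.11 on the log2 scale, SE 0.09), and both cKO libraries were above the controls by less than the gap between the 2 controls. Zmat3, Ccng1 and Trp53inp1 overlapped between the groups, with log2 fold changes of 0.07 (SE 0.13), 0.06 (SE 0.10) and 0.00 (SE 0.09). Trp53inp1, for example, was at 345 and 307 CPM against 299 and 337 CPM. Mdm2, the feedback inhibitor, was at 85.6 and 86.3 CPM against 75.7 and 76.8 CPM (-0.14 on the log2 scale, SE 0.09, adjusted p = 0.430). Bbc3 was at 30.5 and 29.7 CPM against 26.0 and 21.5 CPM (-0.31 on the log2 scale, SE 0.12, adjusted p = 0.209 by edgeR). Of the 9 tested genes, both cKO libraries were above both controls in 4 and below them in 2, where 20.5% and 30% of all tested genes did so. The median log2 fold change of the 9 was 0.07, against -0.01 over all tested genes. In the αβ lineage as a whole Trp53 itself overlapped, at 162 and 148 CPM in the controls, compared with 149 and 141 CPM in cKO cells (-0.06 on the log2 scale, SE 0.09). Mitochondrial UMIs were 5.92% and 6.34% of αβ-lineage UMIs in the controls and 5.31% and 5.85% in cKO cells. They were 5.24% and 5.66% against 4.75% and 5.06% in DPbla cells and 5.76% and 6.14% against 4.96% and 5.39% in CD8SP cells, and their part in the values given here was not tested.

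**Figure D2:**
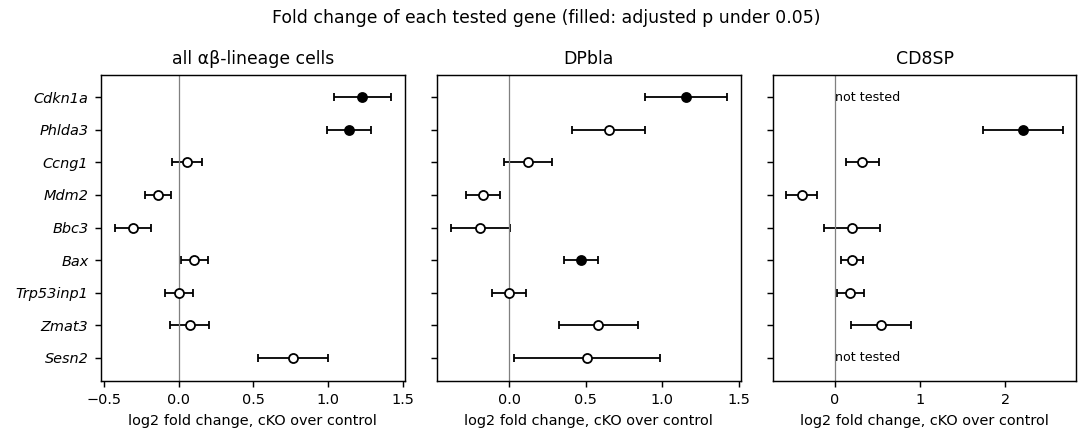
Log2 fold change of cKO over control (x axis) for the 9 detected genes (y axis) in all αβ-lineage, DPbla and CD8SP cells, each from 2 libraries per group, with bars for 1 SE and filled points for an adjusted p under 0.05. Cdkn1a and Phlda3 stand at 1.23 and 1.14 in the αβ lineage, Cdkn1a and Bax are filled in DPbla cells, and Phlda3 stands at 2.21 in CD8SP cells.

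By stage, in the fits without a replicate block, Cdkn1a passed the test in DPbla cells and in no other stage. In DN cells none of the genes was called, where 0.0341% of 8800 tested genes were. None of the 7 tested had an unadjusted p under 0.05, against 7.56% of all tested genes, and Cdkn1a overlapped between the groups with a log2 fold change of -0.11 (SE 0.27). Within DN cells the DN markers summed to 1737 and 1746 CPM in the controls and 1420 and 1640 CPM in cKO cells, the DPbla markers to 450 and 375 CPM against 781 and 749 CPM, and the erythroid markers, with Alas2 at 0, to 2.99 and 11.7 CPM against 218 and 19.6 CPM. The DPre, CD8SP and MPS lists were lower in both cKO libraries, and the part of these markers was not tested. In DPbla cells 2 genes were called higher, Cdkn1a and Bax, against 3.13% of 10771 tested genes called in either direction. DPbla Cdkn1a was at 4.24 and 3.84 CPM in the controls, compared with 7.42 and 9.74 CPM in cKO cells (1.15 on the log2 scale, SE 0.27, adjusted p = 0.0232 by edgeR). DPbla Bax was at 82.8 and 92.8 CPM against 116 and 120 CPM (0.47 on the log2 scale, SE 0.11, adjusted p = 0.0282 by edgeR). For both genes the cKO libraries were above both controls.

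The remaining DPbla values were mixed in direction. Phlda3 was at 5.51 and 7.22 CPM against 8.97 and 10.6 CPM (0.65 on the log2 scale, SE 0.24) and Zmat3 at 4.87 and 4.61 CPM against 6.70 and 7.01 CPM (0.58 on the log2 scale, SE 0.26), both without a call. With the replicate number as a block Phlda3 was called (adjusted p = 0.0385 by edgeR), as were 10.4% of all tested genes. Mdm2 was at 86.2 and 79.5 CPM against 70.5 and 71.4 CPM, and Bbc3 at 12.9 and 13.1 CPM against 10.2 and 11.8 CPM. Ccng1, Trp53inp1 and Sesn2 overlapped between the groups, at 22.6 to 29.3 CPM, 165 to 202 CPM and 0.922 to 2.12 CPM. Of the 9 genes tested in DPbla cells, both cKO libraries were above both controls in 4 and below in 2, against 18.3% and 28.8% of all tested genes. The 2 calls in DPbla cells were lost without cKO 2 (adjusted p = 0.269 for Cdkn1a and 0.0978 for Bax), and that of Bax also without control 1 (0.271). A mitochondrial limit of 5% and keeping cells of extreme UMI totals ended both calls as well (0.202 to 0.264).

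The DPbla class joins 3 clusters, led by Spc25, Esco2 and Top2a, by Cdc6, Hells and Ung, and by Cdc20, Cenpa and Ccnb2. Bax was at 81.7 and 86.4 CPM against 106 and 122 CPM in the first, at 92.0 and 110 CPM against 141 and 134 CPM in the second, and at 74.0 and 77.5 CPM against 76.0 and 75.7 CPM in the third. The first 2 clusters thus had both cKO libraries above both controls and the third had not. Cdkn1a was at 4.78 and 4.58 CPM against 10.1 and 13 CPM in the first and 2.81 and 3.24 CPM against 6.74 and 7.65 CPM in the second, and overlapped in the third at 4.99 and 2.80 CPM against 1.55 and 6.61 CPM. These cluster values are descriptions. DPbla cells made up 9.01% and 8.64% of kept control cells and 11.5% and 11.7% of kept cKO cells, and a further cluster with few UMIs and cycling genes was kept out of the class by a limit set after seeing the data, with 3.33% and 3.42% of kept control cells and 7.54% and 5.82% of kept cKO cells. In that cluster both genes overlapped between the groups, Cdkn1a at 3.67 and 9.85 CPM against 3.35 and 19.0 CPM, from 1, 4, 2 and 17 UMIs, and Bax at 114 and 150 CPM against 156 and 139 CPM. With it counted in, an alternative added after seeing the data, both DPbla calls held (adjusted p = 0.0332 for Cdkn1a and 0.0390 for Bax by edgeR).

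Markers of the DN stage, where Cdkn1a is highest, also differed within DPbla cells. The 8 markers, all detected, summed to 29.9 and 27.1 CPM in control cells, compared with 46.2 and 44.3 CPM in cKO cells, against 1420 to 1746 CPM in DN cells themselves. The DPre markers summed to 3696 and 3303 CPM against 3078 and 3026 CPM in DPbla cells, and the DPbla markers to 6297 and 6189 CPM against 6046 and 5758 CPM. Those of DPsel, γδ T and MPS cells were also lower in both cKO libraries, at 204 and 190 CPM against 177 and 169 CPM, 225 and 218 CPM against 194 and 207 CPM, and 347 and 292 CPM against 291 and 291 CPM. The erythroid markers, with Alas2 at 0, were higher at 11.2 and 8.30 CPM against 14.1 and 14.7 CPM, and the other 5 lists overlapped. The part of these markers in the DPbla results was not tested.

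In DPre cells 1 gene, Phlda3, was called higher, against 1.53% of 11733 tested genes. It was at 5.27 and 3.89 CPM in the controls, compared with 10.7 and 8.94 CPM in cKO cells (1.15 on the log2 scale, SE 0.24, adjusted p = 0.0317 by edgeR). Cdkn1a in DPre cells was at 2.41 and 1.63 CPM against 5.57 and 4.29 CPM and did not pass (1.33 on the log2 scale, SE 0.32, adjusted p = 0.0587), although it did with the replicate number as a block (adjusted p = 0.000423 by edgeR), a fit that called 9.39% of all tested genes. The 8 DN markers summed to 33.8 and 33.7 CPM in control and 59.6 and 58.3 CPM in cKO DPre cells, the 10 DPbla markers to 285 and 194 CPM against 369 and 325 CPM. Erythroid markers (20.6 and 16.8 CPM against 28.4 and 41.6 CPM), MPS markers (395 and 377 CPM against 411 and 437 CPM) and B cell markers (496 and 438 CPM against 569 and 501 CPM) were also higher in both cKO libraries, as were the CD4SP and CD8SP lists, and the medullary epithelial list was lower. The part of those markers in these values was not tested. The DPre call was lost without control 2 (adjusted p = 0.0542), without cKO 1 (0.206) and without cKO 2 (0.214), with a mitochondrial limit of 5% or 20% (0.359 and 0.0644) and by DESeq2 (0.0722).

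In DPsel cells none of the genes was called, against 0.0593% of 10120 tested genes, and 3 of 8 had an unadjusted p under 0.05 (Cdkn1a, Phlda3 and Ccng1), against 7.48% of all tested genes. Cdkn1a was at 0.733 and 0.737 CPM in the controls, compared with 5.74 and 3.42 CPM in cKO cells there, from 2, 3, 14 and 14 UMIs, and the log2 fold change of 2.53 (SE 0.66) had an adjusted p of 0.242 by edgeR (0.0135 with the replicate number as a block, which called 2.32% of all tested genes). Phlda3 was at 6.23 and 7.37 CPM against 13.5 and 12.2 CPM (0.90 on the log2 scale, SE 0.29). The DPbla markers summed to 223 and 158 CPM in control and 313 and 283 CPM in cKO DPsel cells, and the DN markers overlapped. Erythroid markers were at 26.4 and 13 CPM against 126 and 38.3 CPM, and γδ T markers, with Trdv4 at 0, at 35.2 and 24.8 CPM against 52.1 and 43.7 CPM. The DPsel and B cell lists were lower in both cKO libraries, and the part of these markers was not tested.

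In CD4SP cells none was called either, against 0.249% of 9225 tested genes, and 3 of 8 had an unadjusted p under 0.05 (Cdkn1a, Phlda3 and Trp53inp1), against 7.57% of all tested genes. Phlda3 was at 3.17 and 1.28 CPM against 9.78 and 9.68 CPM (2.10 on the log2 scale, SE 0.47, adjusted p = 0.0636 by edgeR). Cdkn1a had 2 and 0 UMIs in the controls and 16 and 11 UMIs in the cKO libraries. That is a ratio of 13.3 between the groups, with an exact 95% counting interval from 3.35 to 116, and an adjusted p of 0.0542 by edgeR. With the replicate number as a block both genes were called (adjusted p = 0.0464 for Phlda3 and 0.0356 for Cdkn1a), as were 0.444% of all tested genes. Of the 8 genes tested in CD4SP cells, both cKO libraries were above both controls in 5 and below in none, against 21.4% and 15.7% of all tested genes. The DN markers summed to 53.8 and 45.9 CPM in control and 70.6 and 62.0 CPM in cKO CD4SP cells, the DPbla markers to 189 and 152 CPM against 254 and 215 CPM. MPS markers (247 and 222 CPM against 285 and 305 CPM), γδ T markers (28.0 and 28.5 CPM against 51.5 and 48.8 CPM, Trdv4 at 0) and erythroid markers (8.6 and 11.9 CPM against 17.0 and 27.7 CPM, Alas2 at 0) were also higher in both cKO libraries, the CD4SP list was lower, and the part of these markers was not tested.

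CD8SP cells showed the highest Phlda3 fold among the stages with a call. Phlda3 was at 1.79 and 3.59 CPM in the controls, compared with 13.7 and 12.6 CPM in cKO cells, a log2 fold change of 2.21 (SE 0.46, adjusted p = 0.0200 by edgeR), and it was the 1 gene called, against 0.613% of 9131 tested genes. The call was lost without control 1 and without cKO 1 (adjusted p = 0.122 for each), with a mitochondrial limit of 20% (0.0659), at a finer clustering (0.0506) and with cells of extreme UMI totals kept (0.0827). Cdkn1a and Sesn2 were too low to be tested. Cdkn1a had 2 and 1 UMIs in the controls and 6 and 6 in the cKO libraries, a ratio of 3.54 with an exact 95% counting interval from 0.955 to 19.5. Sesn2 was at 1.20 and 1.54 CPM against 5.75 and 3.82 CPM.

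The other CD8SP values did not pass the test. Zmat3 was at 9.56 and 7.69 CPM against 13.7 and 11.5 CPM, Ccng1 at 35.3 and 32.3 CPM against 46.0 and 39.3 CPM, and Trp53inp1 at 81.3 and 63.1 CPM against 83.5 and 81.9 CPM. Bax was at 132 and 141 CPM against 160 and 159 CPM (0.20 on the log2 scale, SE 0.13), and Bbc3 overlapped at 10.3 to 20.8 CPM. Mdm2 was at 52.6 and 55.9 CPM against 45.5 and 38.2 CPM (-0.39 on the log2 scale, SE 0.18). Among the 7 genes tested, both cKO libraries were above both controls in 5 and below in 1, Mdm2, against 21.3% and 16.6% of all tested genes. The 10 DPbla markers summed to 759 and 1118 CPM in control and 1453 and 1342 CPM in cKO CD8SP cells. MPS markers (206 and 205 CPM against 267 and 305 CPM), erythroid markers (10.8 and 5.64 CPM against 15.9 and 19.7 CPM) and DN markers (67.5 and 70.8 CPM against 91.9 and 72.1 CPM, Erg at 0) were also higher in both cKO libraries, as was the CD8SP list itself. The part of those markers in these values was not tested. In MPS cells none of the 5 tested genes was called or had an unadjusted p under 0.05, and 0% of 6588 genes were called by edgeR, with 145 (2.20%) at an unadjusted p under 0.05 and 0 called by DESeq2.

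**Figure D3:**
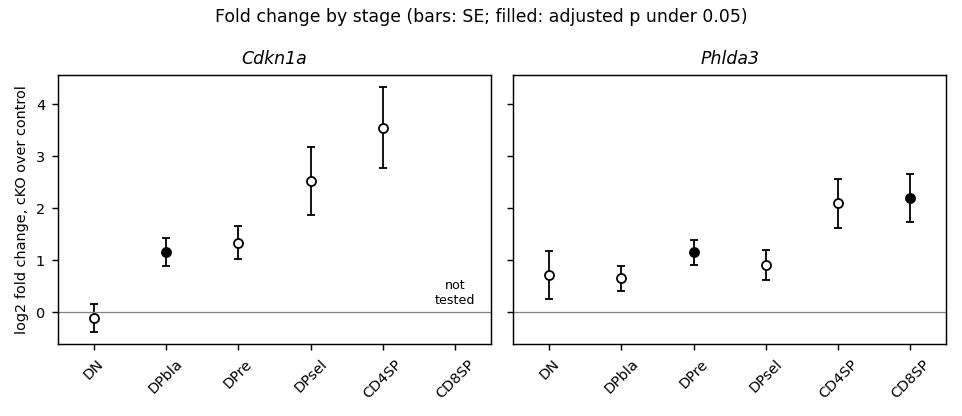
Log2 fold change of cKO over control (y axis) of Cdkn1a and Phlda3 in each stage (x axis), with bars for 1 SE and filled points for an adjusted p under 0.05. Cdkn1a goes from -0.11 in DN cells to 3.55 in CD4SP cells, where the controls hold 2 UMIs in all, and Phlda3 from 0.65 in DPbla cells to 2.21 in CD8SP cells.

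Whether the genotype effect differed between stages was tested in 1 model of the 24 sums. Cdkn1a was the 1 gene called for a genotype by stage interaction (adjusted p = 0.00690 by edgeR), against 2.68% of 11148 tested genes. Relative to DPre cells its effect was lower by 1.45 in DN cells on the log2 scale and higher by 2.33 in CD4SP cells. The call was lost without control 2 (adjusted p = 0.637), without cKO 1 (0.134) and without the DN sums (0.488), so among the 5 stages after DN no difference in the effect was shown. Bax (adjusted p = 0.0985) and Phlda3 (0.233) did not pass. Nor did Trp53 (adjusted p = 0.128 by edgeR), whose effect relative to DPre cells differed in sign between stages. It was 0.14 in DPbla cells and -0.18, -0.24, -0.30 and -0.20 in DN, DPsel, CD4SP and CD8SP cells on the log2 scale.

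Individual cells were then examined, since a mean of a few CPM can come from few cells. From DPbla to CD8SP, the cKO libraries had 150 and 205 Cdkn1a UMIs, in 92 of 5244 and 136 of 9512 cells, and 15 cells of each library held 3 or more of them. The control libraries had 48 and 50 UMIs, in 37 of 4524 and 41 of 7070 cells, with 2 cells each at 3 or more. The highest number in 1 cell was 11 and 9 in the cKO and 5 and 4 in the control libraries. Cells with a Cdkn1a UMI were deeper than others, with a median of 5356 and 5916 UMIs against 3457 and 2512 for all cells of these stages in the cKO libraries, and their counts are not compared between groups as shares for that reason.

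In the cKO libraries the cells that held a Cdkn1a UMI had higher levels of Bax, Phlda3, Ccng1 and Zmat3 than the other cells. Bax was at 271 CPM (95% Poisson interval 233 to 314) and 237 CPM (207 to 271) in these cells of cKO 1 and 2, against 132 and 133 CPM in all other cells of the same stages. Phlda3 was at 73.1 CPM (53.9 to 96.9) and 52.4 CPM (38.7 to 69.5) against 8.89 and 8.98 CPM. Ccng1 was at 96.0 and 107 CPM against 38.3 and 40.7 CPM, and Zmat3 at 36.6 and 43.7 CPM against 12.3 and 12.3 CPM. For these 4 genes the interval excluded the level of the other cells in both cKO libraries, and the share of all genes that did so was not determined. The intervals cover counting error only.

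Mdm2, Bbc3 and Trp53inp1 did not follow in the same way. Mdm2 was at 108 CPM (84.5 to 136) against 78.2 CPM in cKO 1, but at 81.9 CPM (64.4 to 103) against 79.1 CPM in cKO 2. Bbc3 was at 39.6 CPM (25.9 to 58.0) against 26.7 CPM and at 29.5 CPM (19.4 to 42.9) against 22.4 CPM. Trp53inp1 was at 335 and 340 CPM against 322 and 364 CPM in the cKO libraries, and at 266 CPM (209 to 333) and 185 CPM (138 to 243) against 372 and 328 CPM in the control libraries.

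In the control libraries the Cdkn1a-holding cells gave wide intervals. Bax was at 121 CPM (83.5 to 169) and 153 CPM (111 to 207) against 122 and 133 CPM, so its level was not distinguishable from that of the other cells. Phlda3 was at 7.09 CPM (0.859 to 25.6) against 4.91 CPM in control 1 and at 46.4 CPM (24.7 to 79.3) against 4.51 CPM in control 2, where its interval excluded the level of the other cells. Among all DPbla to CD8SP cells of control 2, 1 cell held 8 Phlda3 UMIs. Ccng1 was at 53.2 CPM (29.8 to 87.8) and 60.6 CPM (35.3 to 97.1) in the Cdkn1a-holding control cells, against 42.4 and 39.1 CPM. Zmat3 was at 17.7 CPM (5.76 to 41.4) and 10.7 CPM (2.21 to 31.3) against 11.6 and 13.5 CPM. For both genes the intervals held the level of the other cells. The difference between the groups in these cells was not tested, and nor was the share of these UMIs that came from free RNA in the droplets.

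The Cdkn1a-holding cells also had more of the cycling markers. Their 10 DPbla markers summed to 4014 and 4841 CPM against 2325 and 2172 CPM in the cKO libraries and to 4952 and 4814 CPM against 1647 and 1624 CPM in the controls, and the part of the stage in the Bax values was not tested. Within DPbla cells alone, the cKO cells with a Cdkn1a UMI had Bax at 219 CPM (174 to 271) and 210 CPM (176 to 248) against 111 and 115 CPM. Zmat3 was at 15.6 CPM (5.73 to 34.0) and 26.2 CPM (15.3 to 42.0) against 6.27 and 5.88 CPM, and the interval of cKO 1 held the level of the other cells. Ccng1 was at 59.8 CPM (37.9 to 89.8) and 70.9 CPM (51.9 to 94.6) against 20.8 and 26.9 CPM. Phlda3 was at 33.8 CPM (18.0 to 57.8) and 29.3 CPM (17.6 to 45.7) against 7.78 and 9.50 CPM. The 15 and 19 such DPbla cells of the controls had Bax at 63.0 CPM (31.4 to 113) and 103 CPM (63.0 to 159) against 83.6 and 92.5 CPM, within the intervals. In the cKO libraries DN markers summed to 73.1 and 62.3 CPM in the Cdkn1a-holding cells of DPbla to CD8SP and to 59.2 and 52.6 CPM in the others. MPS markers there summed to 297 and 260 CPM against 343 and 369 CPM. In the control libraries the DN markers went the other way, at 24.8 and 35.7 CPM against 41.2 and 38.8 CPM. Control MPS markers were at 302 and 321 CPM against 352 and 328 CPM.

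In DN cells Cdkn1a UMIs were found in 32 of 157 and 97 of 318 cKO cells, and Bax was at 105 and 109 CPM in them against 118 and 115 CPM in the other DN cells. Zmat3 had 0 and 1 UMIs in these cells. Phlda3 had 0 UMIs in cKO 1, against 12.8 CPM in the other DN cells, and 12 UMIs in cKO 2, at 15.1 CPM (7.79 to 26.4) against 7.73 CPM, so the libraries went opposite ways. MPS markers in the Cdkn1a-holding DN cells summed to 699 CPM against 205 CPM in control 2 and to 343 against 263 CPM in cKO 1. They were lower than in the other DN cells in control 1 and cKO 2, and their part was not tested.

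**Figure D4:**
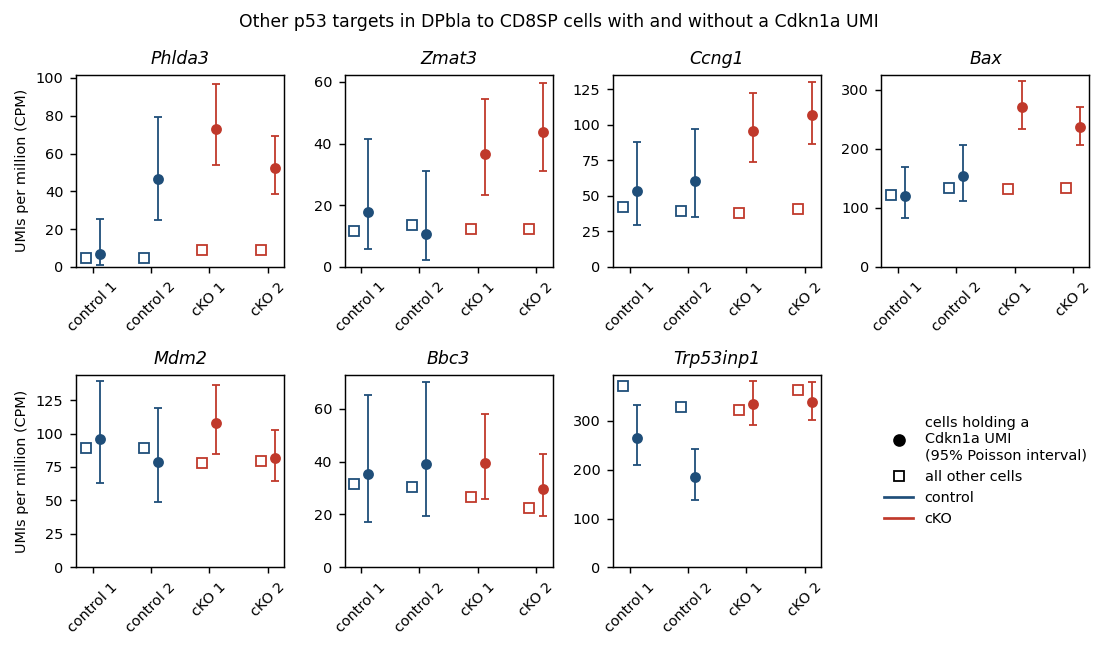
Level (y axis, UMIs per 1000000, CPM) of 7 other p53 targets in DPbla to CD8SP cells with a Cdkn1a UMI (filled circles, 95% Poisson interval of the count) and in all other cells of these stages (open squares), by library (x axis, blue control, red cKO). In both cKO libraries Phlda3, Zmat3, Ccng1 and Bax lie above the level of the other cells, with Bax at 271 and 237 CPM against 132 and 133 CPM, and Trp53inp1 does not.

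A wider list of 50 genes was also drawn up by name, and regulation of each of them by p53 was not tested. It held 8 regulators of p53, 8 cell cycle genes, 10 cell death genes, 12 repair and metabolism genes and 12 BCL2 family genes. Of its 43 genes tested in the αβ lineage, 11 had an unadjusted p under 0.05, against 18.7% of all tested genes, and none was called by edgeR. With the replicate number as a block 10 of them were called there, among 14.7% of all tested genes, with 9 in DPbla cells (10.4% of all tested genes) and 4 of 42 in DPre cells (9.39%). DESeq2 called 1 gene of the list in the αβ lineage (Btg2, chosen for naming after its value was seen). In DPbla cells 39 were tested, with 1 called higher and 3 called lower, against 2.01% and 1.12% of all tested genes. Aen, an exonuclease induced by p53 during apoptosis, was at 13.8 and 11.5 CPM in the controls, compared with 20.6 and 23.2 CPM in cKO cells (0.85 on the log2 scale, SE 0.17, adjusted p = 0.0107 by edgeR). The 3 lower genes all came from the cell cycle list, of which 7 were tested. Ccng2, a cyclin linked to arrest, was at 149 and 134 CPM against 106 and 89.7 CPM (-0.48 on the log2 scale, SE 0.11, adjusted p = 0.0256). Gadd45a, a stress sensor, was at 17.0 and 18.3 CPM against 11 and 10 CPM (-0.71 on the log2 scale, SE 0.18, adjusted p = 0.0420). Cdkn1b, the p27 inhibitor of cyclin-dependent kinases, was at 183 and 177 CPM against 131 and 133 CPM (-0.40 on the log2 scale, SE 0.10, adjusted p = 0.0404 by edgeR). Leaving out cKO 2 ended all 4 calls (adjusted p from 0.0763 to 0.238). Ccng2 was also lost without control 1 (0.122), Gadd45a without control 2 (0.144), without cKO 1 (0.0673), with the cluster of few UMIs counted in (0.0534) and by DESeq2 (0.254), Aen by DESeq2 (0.0583), and Cdkn1b without any 1 library.

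The Ccng2, Gadd45a and Cdkn1b libraries did not overlap between the groups, and Cdkn1a moved the opposite way in the same DPbla cells. In DPre cells Cdkn1b was at 279 to 302 CPM and Gadd45a at 25.1 to 31.7 CPM, above every DPbla library, whereas Ccng2 overlapped at 110 to 148 CPM, and the DPre markers within DPbla cells were lower in both cKO libraries. Their part in these values was not tested. In CD8SP cells 38 of the 50 were tested and 1 was called lower, against 0.164% of all tested genes. Bcl2a1b, a BCL2-type survival gene with near-identical neighbours that can share its reads, was at 38.9 and 41.5 CPM against 17.2 and 20.8 CPM (-1.12 on the log2 scale, SE 0.22, adjusted p = 0.0119 by edgeR), a call lost without cKO 1 (adjusted p = 0.0566) and at the finer clustering (0.0506). The list had no call by edgeR in DN, DPre, DPsel, CD4SP or MPS cells, in which 24 to 42 of its genes were tested and 1 to 5 had an unadjusted p under 0.05, against 2.20% of all tested genes in MPS to 15% in DPre cells.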

How the data were processed

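Thymocytes of 2 control and 2 cKO libraries were profiled with 10x Genomics 3′ chemistry. The deposited counts are whole UMI counts per gene and cell barcode, made by the authors with Cell Ranger 6.1.1 and GRCm38 (mm10), and the annotation release is not given in the sources used here. The authors' count matrices were the starting point of everything below. Gene positions are those of GENCODE M21.

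Cells were dropped below 200 genes, above 10% mitochondrial UMIs, and in the lowest or highest 2.5% of UMI totals of their library. The 5% of remaining droplets with the highest Scrublet score (expected share 8%) were removed as doublets from each library. Cells were clustered with scanpy 1.11.5 (3000 variable genes without the p53 genes, 30 components, 20 neighbours, Leiden resolution 1), and clusters were named from fixed marker lists. A cluster needed 3 detected markers, and one with a median UMI total under 1/3 of that of its libraries stayed unnamed. UMIs were summed per class and library. Sums were tested for genotype with edgeR 4.0.16 (quasi-likelihood, TMM, filterByExpr, limma 3.58.1, R 4.3.3), with Benjamini-Hochberg adjustment over all tested genes and a call at an adjusted p under 0.05. The interaction was fitted over 24 sums with library, stage and genotype by stage terms, in which stages of 1 library share its cells' source. Scripts were tested on simulated data.

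Values are given for all 10 genes, with fold changes in the αβ lineage and where called, and for all in DPbla and CD8SP cells. Other genes of the wider list are named where called. Trp53 is given for the αβ lineage, for the interaction and for the droplets with over 10% mitochondrial UMIs. The genes, lists and tests were chosen with earlier results of these data known. DESeq2 1.42.0, other normalization, filters, clustering and left-out libraries were tried as alternatives. Intervals and floors (3 counts for a count of 0) cover counting error only.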

Additional observations from a re-analysis of the deposited data

Results flagged for a closer look

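The genotype effect on Cdkn1a differed between stages by the interaction test (adjusted p = 0.00690 by edgeR), a call lost without control 2 (0.637), without cKO 1 (0.134) and without the DN sums (0.488). Its log2 fold change was -0.11 in DN cells and between 1.15 and 3.55 in DPbla, DPre, DPsel and CD4SP cells.

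Droplets with over 10% mitochondrial UMIs, 6094 and 2432 of control 1 and 2 with 7197 and 4010 of cKO 1 and 2, entered no comparison of the report and only the alternative with a limit of 20%. In them Cdkn1a was at 4.17 and 4.58 CPM in the controls, compared with 4.65 and 10.2 CPM in the cKO group, a log2 ratio of the means of 0.76. Phlda3 was at 4.17 and 6.1 CPM against 6.24 and 7.57 CPM, a log2 ratio of 0.43. Both cKO libraries lay above both controls for the 2 genes, with cKO 1 close to control 2, and no test was made. Of the 10 genes 4 were lower in both cKO libraries, Zmat3 (14.1 and 19.3 CPM against 11.2 and 13 CPM, a log2 ratio of -0.47), Mdm2 (-0.20), Bbc3 (-0.17) and Trp53inp1 (-0.16). Among 14158 genes with at least 10 UMIs in these droplets, 20.5% were higher and 23.6% lower in both cKO libraries. Bax overlapped in these droplets, at 85.9 and 107 CPM against 90.5 and 101 CPM. Trp53 was lower in both cKO libraries, at 105 and 118 CPM against 86.1 and 102 CPM, a log2 ratio of -0.25.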

How the results depend on the processing

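None of the 6 called fold changes of the 10 genes changed sign under the alternatives run, whereas some uncalled ones near 0 did (Trp53inp1 in the αβ lineage went from 0.00 to -0.07 without control 2). The rise of Cdkn1a and Phlda3 in the αβ lineage was called under each one except, for Cdkn1a, without cKO 2 and, for Phlda3, without cKO 1. The number of genes called, out of the 10, was 2 in αβ-lineage cells (413), 2 in DPbla (337) and 1 in DPre (180). It was 0 in CD4SP (23), 1 in CD8SP (56) and 1 for the interaction (299), and the wider list had 0 in the αβ lineage (413). In parentheses, here and below, is the number of all tested genes called under the same setting. Leaving out 1 library changed each count of the 10 genes and of the list in at least 1 run. A lone library of a group is then assumed to vary like the other group. DESeq2 gave 0 in DPre cells (165) and 1 for the wider list (549). It gave no adjusted p for Cdkn1a in DPbla cells, Phlda3 in CD8SP cells or the Cdkn1a interaction (unadjusted p = 0.00119). Without a filter on low counts there were 2 in DPre (626), 1 in DPsel (123), 4 of the wider list (1187) and 2 for the interaction (560). A mitochondrial limit of 5% gave 0 in DPbla (75), 0 in DPre (112) and 1 in DPsel (42), and a limit of 20% gave 0 in DPre (142), 1 in DPsel (56), 1 in CD4SP (29) and 0 in CD8SP (30). Without doublet removal there were 2 in DPre (176) and 2 in CD4SP (35), at Leiden resolution 1.5 there were 2 in CD4SP (57) and 0 in CD8SP (15), and with p53 genes kept for clustering 2 in DPre (266) and 2 in CD4SP (30). With cells of extreme UMI totals kept there were 0 in DPbla (48), 2 in DPre (195), 1 in CD4SP (28) and 0 in CD8SP (18). The interaction had 0 without the DN sums (229), a choice made after seeing the data. The 5% limit and keeping extreme UMI totals left no DN class to test. The cause of these changes was not tested.

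Replicate numbers are shared by the groups, and the study describes pairs of littermate mice, but the labels do not say that equal numbers form a pair. Deviations of same-numbered libraries correlated at 0.10 to 0.29 over genes with only 2 pairs. With the replicate number as a block, 4 of the 10 genes were called in the αβ lineage (Bbc3 and Sesn2 added, among 1953 genes in all), 2 in DPre (1102 in all), 1 in DPsel (235), 2 in CD4SP (41) and 10 of the wider list in the αβ lineage, and the Tox4 log2 fold change of -0.25 had an adjusted p of 0.0484. With 2 libraries per group and few UMIs in the single-positive stages, small changes of Cdkn1a and Sesn2 there were not detectable.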
